A study of Mus musculus with 3 samples.

Results

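The genes described here encode the adhesive and adaptor proteins of the epidermal desmosome: the desmogleins Dsg1a, Dsg1b, Dsg2 and Dsg3, the desmocollins Dsc1, Dsc2 and Dsc3, corneodesmosin (Cdsn) and the plakophilins Pkp1 and Pkp3. They were chosen by gene symbol, and all 10 were present among the 31053 genes counted. The data came from 3 single-cell RNA libraries of ear epidermis of untreated 9-week-old C57BL/6N mice, replicates 1 to 3 of 1 group. The cells had been freed with dispase and then trypsin and stored frozen. Droplet libraries were made with a kit that reads the 5′ end of each transcript and tags each molecule with a unique molecular identifier (UMI). Levels are given as CPM, the UMIs of a gene per 1000000 UMIs of the library's cells in that group. Nothing in the labels says whether the replicates were separate animals, so the p-values measure the spread between libraries, which may be technical.

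Of 6078 barcodes, 5340 were kept as cells, with no fewer than 500 genes and no more than 10% of UMIs from mitochondrial genes, and with a median depth per replicate between 9238 and 14570 UMIs. Cells were sorted into groups by genes other than the 10. Follicle cells had 2 or more of Sox9, Fst, Lgr5, Cd34 and Wif1 detected. The remaining cells were basal (Krt5 and Krt14 together at least 0.5% of UMIs, Krt1 and Krt10 together under 0.5%), spinous (Krt1 and Krt10 at least 0.5%, Lor under 1%) or granular (Lor at least 1%). This gave 122 follicle, 2312 basal, 2295 spinous and 424 granular cells, with 187 in none of these groups. Each layer was led by its own marker list. This is no check of the sorting, since the layer lists and the follicle list hold the genes that define the groups. The spinous list summed to 34376 to 37740 CPM in spinous cells and to 45448 to 47946 in granular cells. In follicle cells the follicle list summed to 3650 to 8568 CPM, below the basal list at 10967 to 13234, and the T-cell, endothelial and Merkel cell markers were at 0. Between 0 and 8 barcodes of kept cells were shared by any pair of libraries, and leaving those cells out changed no call on the 10 genes.

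Desmosomes are spot-like junctions that tie the keratin filaments of neighbouring keratinocytes together. Desmogleins and desmocollins are cadherins that bind across the gap between cells. Plakoglobin, plakophilins and desmoplakin join their inner tails to the filaments. In epidermis the cadherin paralogs are known to be used in overlapping layers, and desmoglein 1 and desmoglein 3 are the targets of autoantibodies in pemphigus. Corneodesmosin is a secreted glycoprotein that is built into desmosomes of the uppermost living cells and is cut by kallikreins as the horny layer sheds. Here "switching" means that the share of a family's UMIs taken by one paralog changed; counts per gene cannot tell splice forms of 1 gene apart.

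Cdsn had the largest rise of the 10 genes from basal to spinous and from spinous to granular cells, and its promoter is shown for that reason. GENCODE M21 (GRCm38) places the gene on chromosome 17 from 35552128 to 35557180 on the plus strand. The stretch covers 250 bases before to 50 after the annotated start, on the plus strand of GRCm38.p6, chr17:35551878-35552177, from RefSeq.
Cdsn promoter: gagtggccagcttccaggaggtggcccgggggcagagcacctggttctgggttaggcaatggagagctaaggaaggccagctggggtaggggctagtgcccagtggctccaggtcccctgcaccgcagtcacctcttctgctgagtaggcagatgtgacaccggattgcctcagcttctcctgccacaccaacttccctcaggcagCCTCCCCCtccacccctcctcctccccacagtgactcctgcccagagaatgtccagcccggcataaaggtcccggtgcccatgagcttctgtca
The capitals mark the match to the KLF-type motif CCNCNCCC, which starts 44 bases before the transcription start. That motif was found on either strand in 49.5% of 32851 mouse promoters of the same length. The letters TGANTCA (AP-1), AACNGGTT (grainyhead-like) and TATAAA (a core promoter element) were not in this window, and they were in 7.81%, 2.09% and 13.6% of promoters.

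In GENCODE M21 (GRCm38), the 7 desmoglein and desmocollin genes lay in 1 cluster of 643592 bases on chromosome 18, from 19960930 to 20604521, which also held Dsg1c. The desmocollin genes were on the minus strand and the desmoglein genes on the plus strand. Pkp1 was annotated on chromosome 1 from 135871395 to 135919207 on the minus strand and Pkp3 on chromosome 7 from 141078218 to 141090510 on the plus strand. Dsg1a and Dsg1b are near copies: 45.5% of the 50-base stretches of the Dsg1b transcript also occurred in Dsg1a. Within the first 500 bases, at the end that the kit reads, this was 52.55%. How the counting divided reads between the copies is not known, so each one's own level is uncertain and their sum is used for shares. No 50-base stretch was shared between Dsg1a or Dsg1b and Dsg2 or Dsg3. Dsg2 overlapped the antisense gene Gm16090 over 6558 bases, and no source used here says whether the counting used strand.

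The desmogleins were exchanged between the basal and the spinous layer. Dsg1a and Dsg1b rose, and Dsg2 and Dsg3 fell. Dsg1a held 107, 117 and 104 CPM in basal cells of replicates 1 to 3, then 979, 974 and 1137 in spinous cells, and 449, 434 and 483 in granular cells. Every spinous library was above every library of the other layers. Dsg1b had the same order at a lower level, at 4.55 to 5.77 in basal, 50.2 to 55.6 in spinous and 8.81 to 16 in granular cells.

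Dsg2, the desmoglein that simple epithelia also use, held 38.7, 37.5 and 39.2 CPM in basal cells, then 1.51, 1.57 and 2.39 in spinous cells, and 0.594, 0.705 and 0.986 in granular cells. Dsg3, a desmoglein of stratified epithelia, held 28.5, 24.2 and 34.4 in basal cells, then 5.17, 5.00 and 6.90 in spinous cells, and 1.19, 1.06 and 0.493 in granular cells. For both genes no library of one layer reached into the range of the next. The granular values rest on 7 UMIs of each gene.

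The desmocollins behaved differently from the desmogleins in their timing. Dsc3 held 349, 348 and 342 CPM in basal cells, then 808, 789.9 and 838 in spinous cells, and 72.4, 60.6 and 33.3 in granular cells. It was thus highest in the spinous layer. Dsc1 held 0.727, 2.02 and 3.41 in basal cells, then 164, 166 and 205 in spinous cells, and 270, 268 and 335 in granular cells, with no overlap between layers. Dsc2, the form common in simple epithelia, never exceeded 3.35 CPM in any library and group, and had 39 UMIs in basal, 35 in spinous and 1 in granular cells.

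Cdsn held 1.09, 1.87 and 3.53 CPM in basal cells, then 272, 359.8 and 239.8 in spinous cells, and 2350, 2576 and 2871 in granular cells. Among the 10 genes it had the highest level of any gene in any layer. Pkp1, which clusters and stabilises desmosomal plaques, held 333, 353 and 380.2 in basal cells, then 955, 938 and 1083 in spinous cells, and 338, 343 and 380 in granular cells. The basal and granular ranges of Pkp1 overlapped. Pkp3, a plakophilin found in all layers, stayed within 106 and 200.4 CPM in the 3 layers.

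**Figure D1:**
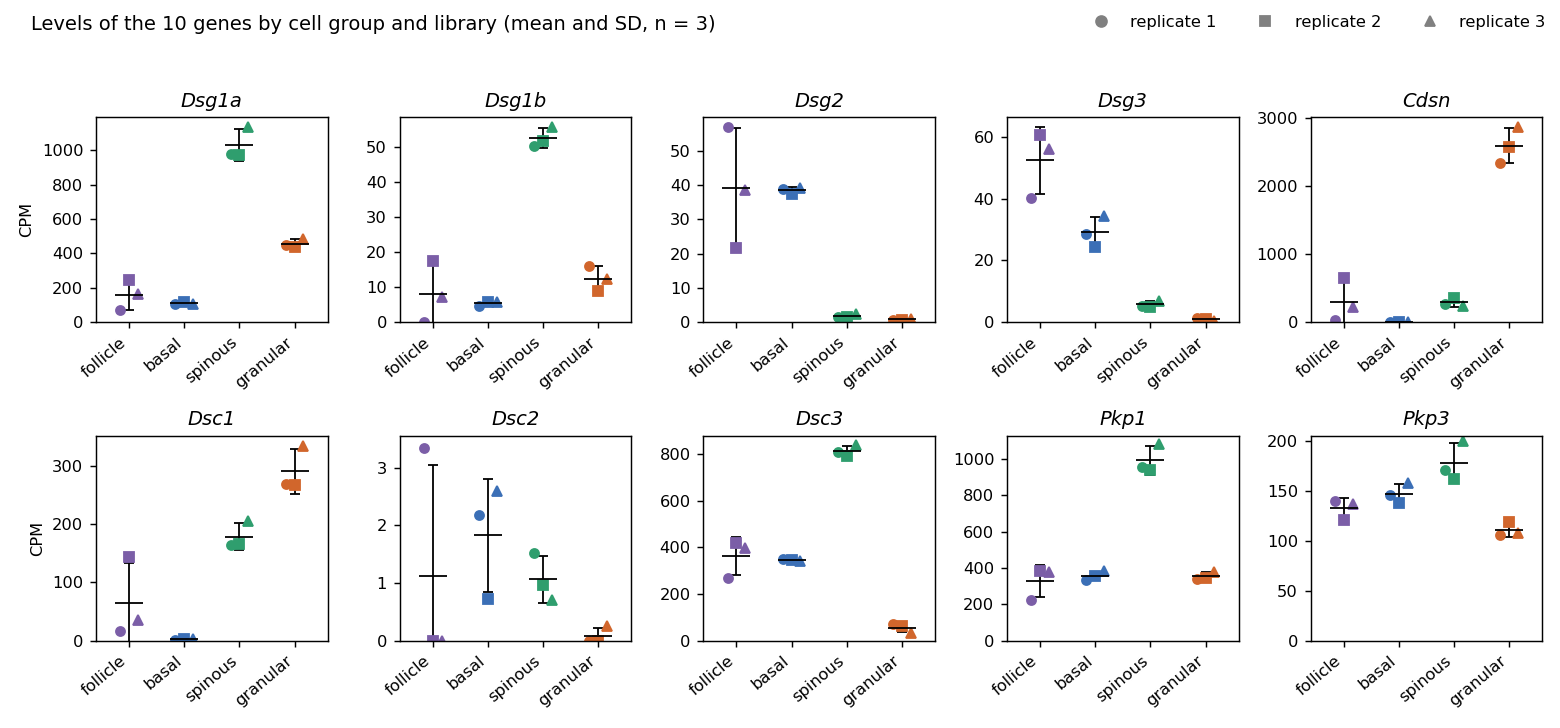
CPM (linear axis from 0, a different scale in each panel) of the 10 genes in follicle, basal, spinous and granular cells; marks are the 3 libraries, bars the mean and SD, and an SD reaching below 0 is cut at the axis. Dsg2 and Dsg3 were high in basal and follicle cells, Dsg1a, Dsg1b, Dsc3 and Pkp1 peaked in spinous cells, and Dsc1 and Cdsn peaked in granular cells.

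Fold changes were tested with edgeR's quasi-likelihood test on UMIs summed per library and group, scaled by TMM, with p-values adjusted by Benjamini-Hochberg over 11364 genes. Between spinous and basal cells 7 of the 10 genes were called higher and 2 lower, in a comparison in which 35.8% of all genes were called higher, 32.8% lower and 68.5% in either direction. Their median log2 fold change was 1.74, beside 0.02 over all genes. Cdsn rose by 7.40 ± 0.49 on the log2 scale (SE; adjusted p = 1.62e-11) and Dsc1 by 6.73 ± 0.27 (adjusted p = 3.93e-15). The basal means of these 2 genes, 2.16 CPM for Cdsn and 2.05 for Dsc1, lay below the levels in 61 immune cells, at 6.29 for Cdsn (2 UMIs) and 3.15 for Dsc1 (1 UMI), though basal replicate 3 had 3.41 of Dsc1. Both folds are thus set against a level near that of cells that should lack the genes. Without replicate 3 the change of Cdsn was 8.16.

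Dsg1a rose by 3.62 ± 0.17 (adjusted p = 8.39e-14) and Dsg1b by 3.66 ± 0.15 (adjusted p = 7.39e-15). In the 61 immune cells Dsg1a stood at 53.5 CPM, from 17 UMIs, beside 104 to 117 in basal cells. Dsg1b, Dsg2 and Dsg3 had 0 UMIs in those immune cells. Dsg2 fell by 3.96 ± 0.16 on the log2 scale (adjusted p = 7.78e-15) and Dsg3 fell by 1.96 ± 0.13 (adjusted p = 1.99e-11). Dsc3 and Pkp1 rose by 1.61 and 1.87, and Pkp3 by 0.66. Dsc2, at -0.44 ± 0.42 (adjusted p = 0.358), was not called. Scaling by total UMIs instead of TMM moved the median of all genes from 0.02 to -0.36 and the split over all genes from 4067 higher and 3723 lower to 2541 and 5805. The calls on the 10 genes did not change with it, though Pkp3 then stood at 0.27.

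Between granular and spinous cells 2 of the 10 genes were called higher and 5 lower, with 30.8% of all genes called higher, 37.4% lower and 68.2% in either direction. Cdsn rose by 3.96 ± 0.36 (adjusted p = 2.84e-09) and Dsc1 by 1.48 ± 0.17 (adjusted p = 8.67e-08). Dsc3 fell by 3.17 ± 0.17 (adjusted p = 4.89e-13), Dsg3 fell by 2.03, Dsg1b fell by 1.36 and Pkp1 fell by 0.72. The median of the 10 was -0.56, beside -0.24 over all genes. Dsc3 stood at 69.2 CPM in 61 immune cells, from 22 UMIs in 5 of them, within the granular range of 33.3 to 72.4.

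Scaling moved more values in this step. Granular profiles had 54838 to 71701 CPM of Lor alone, against 173 to 451 in spinous profiles. With total UMIs the median of all genes was -1.02, the split over all genes was 2012 higher and 7059 lower instead of 3497 and 4251, and 8 of the 10 genes were called lower. Dsg2, Dsc2 and Pkp3 were the ones added. Pkp3 stood at 0.10 with TMM (adjusted p = 0.336) and at -0.68 with total UMIs (adjusted p = 2.31e-06), so its direction depends on the scaling. With DESeq2 it was called higher, at 0.23 (adjusted p = 0.042). The fall of Dsg1a, at -0.40 ± 0.16 (adjusted p = 0.0286), was not called without the replicate block (adjusted p = 0.0959), with DESeq2 (adjusted p = 0.352) or without replicate 3 (adjusted p = 0.0831). Cdsn, Dsc1, Dsc3, Dsg3, Dsg1b and Pkp1 kept direction and call with either scaling; with total UMIs Cdsn stood at 3.19, Dsc1 at 0.70, Dsc3 at -3.94 and Dsg1a at -1.18.

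**Figure D2:**
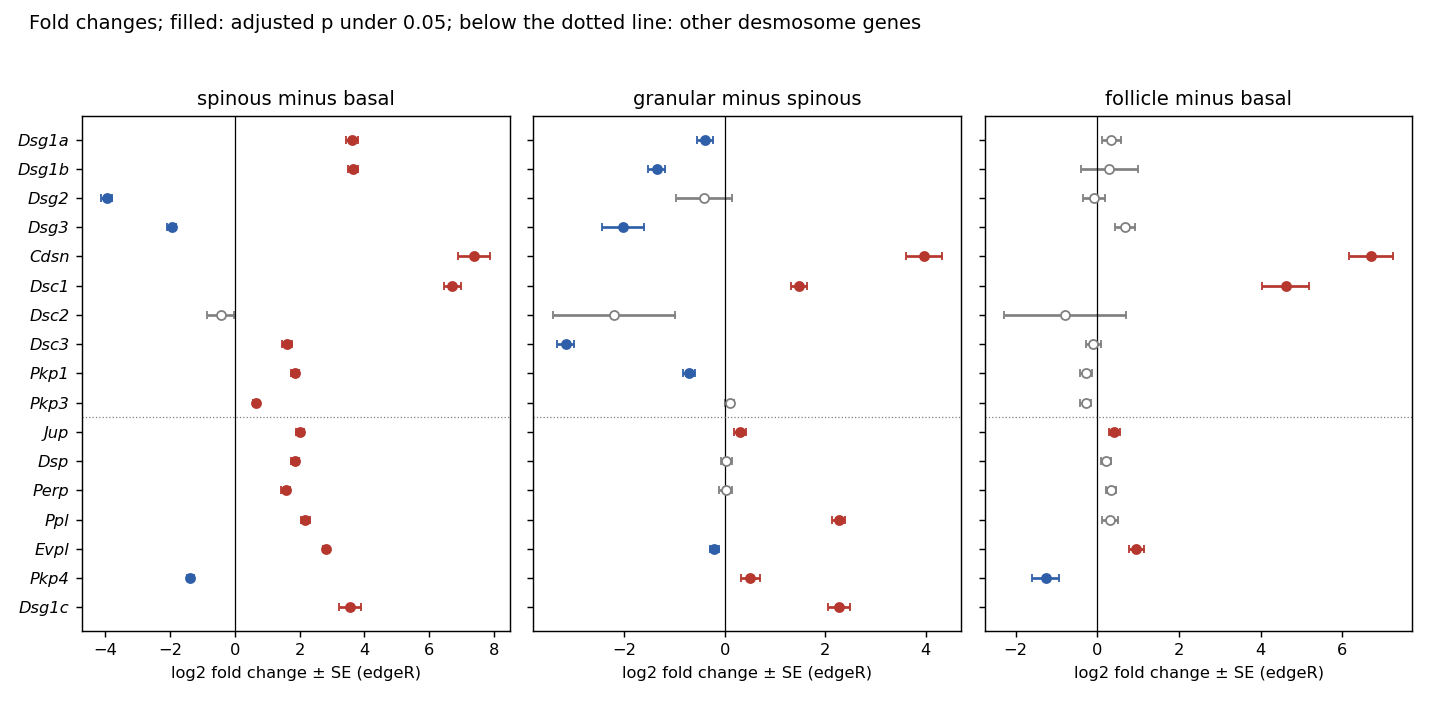
Log2 fold change with its SE (edgeR, TMM) for the 10 genes and, under the dotted line, 7 other desmosome genes, in 3 comparisons; filled marks have an adjusted p under 0.05, and Dsg1c is not drawn for follicle cells, where it had no UMI. Dsg2 and Dsg3 lie left of 0 for spinous minus basal cells while Dsc1 and Cdsn lie far right, and Dsc3 lies left of 0 for granular minus spinous cells.

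Shares within each family do not depend on how libraries are scaled against each other. Here and below, the desmoglein UMIs are those of Dsg1a, Dsg1b, Dsg2 and Dsg3, and the plakophilin UMIs those of Pkp1, Pkp2 and Pkp3. Dsg1c was left out, with 12 UMIs in basal, 194 in spinous and 129 in granular cells. The granular count lay above the 7 of Dsg2 and the 7 of Dsg3. Pkp4 was left out too, with 855 UMIs in basal cells, beside 3098 of Pkp3. Dsg1a and Dsg1b together took 63.0% ± 3.4 of the desmoglein UMIs in basal cells, 99.3% ± 0.077 in spinous cells and 99.6% ± 0.053 in granular cells (SD, n = 3). Dsg2 took 21.1% of them in basal cells, 0.166% in spinous cells and 0.161% in granular cells, and Dsg3 took 15.9%, 0.519% and 0.197%. Dsg1a also stood at 53.5 CPM in immune cells, where Dsg2 and Dsg3 had 0 UMIs. The part of such a background in the basal shares was not tested. Among the genes counted, the share of Dsg1a and Dsg1b was higher by 36.3 points in spinous than in basal cells. It was higher by 0.327 points in granular than in spinous cells, a small difference that leaves out Dsg1c. The exact two-sided permutation test gave p = 0.1 for each, the smallest value that 3 against 3 libraries can give. Here and below, this test shuffles libraries freely between the groups compared. It does not use the pairing that comes from each library giving both groups.

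Dsc1 took 0.588% ± 0.39 of the desmocollin UMIs in basal cells, 17.95% ± 1.5 in spinous cells and 83.7% ± 6.3 in granular cells, and Dsc3 took 98.9%, 81.9% and 16.2%. The gain of Dsc1 was 17.4 points from spinous over basal cells and 65.8 points from granular over spinous cells, each in 3 of 3 libraries (exact permutation p = 0.1 for each). The desmoglein exchange therefore fell at the first step and most of the desmocollin exchange at the second. Plakophilin shares, counted without Pkp4, moved less. Pkp1 took 70.7% in basal, 84.8% in spinous and 76.1% in granular cells, with nearly all of the rest from Pkp3. Neighbouring layers did not overlap in these shares (exact permutation p = 0.1 for each step).

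**Figure D3:**
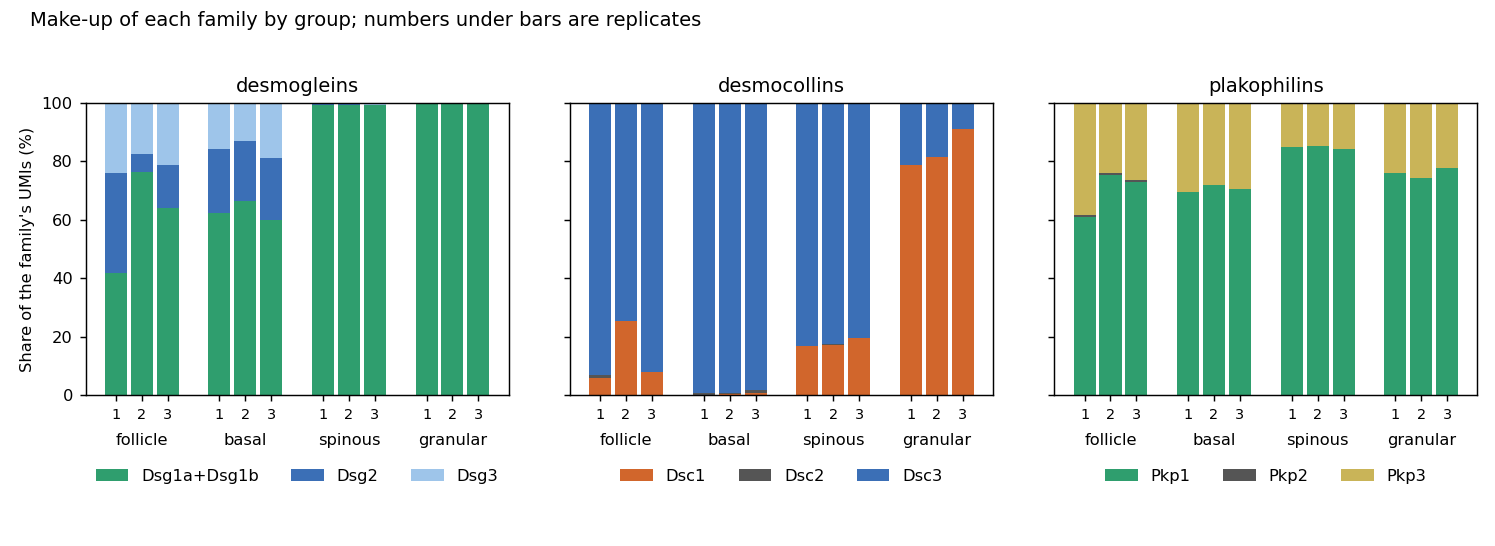
Share of the desmoglein (without Dsg1c), desmocollin and plakophilin (without Pkp4) UMIs (%) taken by each gene in every library, by cell group. Dsg1a and Dsg1b filled over 99% of the desmoglein bar from the spinous layer on, while Dsc3 still held 80.3% to 83.0% of the desmocollin bar in spinous cells and 9.03% to 21.2% in granular cells.

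A finer order came from splitting cells by their share of Krt1 and Krt10, and the granular cells by Lor; these values are descriptions without a test. Basal cells with under 0.05% of Krt1 and Krt10 had 56.6% of their desmoglein UMIs from Dsg1a and Dsg1b. This share was 72.0% at 0.05 to 0.5%, 97.7% at 0.5 to 1% and 99.3% at 1 to 2%. Over the same steps Dsg2 held 39.7, 35.5, 4.32 and 1.53 CPM, so its fall lay at the entry into the spinous group. The steps under 0.5% also required Krt5 and Krt14 together at 0.5% or more, and the higher steps did not. The part of this rule in the fall was not tested. Dsg1a climbed on to 1927 in cells with 4% or more Krt1 and Krt10, at 1471, 2195 and 2114 in replicates 1 to 3. This step had 47 cells, with 9 in the smallest library.

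The Dsc1 share of desmocollins grew more slowly, at 0.509%, 0.693%, 4.60%, 13.3%, 29.7% and 38.7% over the 6 keratin steps. It then stood at 72.9%, 84.4%, 89.5% and 96.8% in granular cells with Lor at 1 to 2%, 2 to 5%, 5 to 10% and 10% or more. The last keratin step, of 47 cells, ranged from 29.3% to 48.4% between libraries. The first Lor step had 69 cells, 7 of them in the smallest library, and ranged from 59.2% to 85.4%. Dsc1 itself held 495, 440.2, 208 and 40.5 CPM over the 4 Lor steps and Dsc3 held 180.0, 84.4, 22.8 and 1.54. The share of Dsc1 thus grew within the granular group while both levels were lower in each further step.

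Dsg2, Dsg3 and Dsc2 had 7, 7 and 1 UMIs in granular cells. Of the other members, only Cdsn was not lower in the last Lor step than in the first. It held 2655, 2586, 2525 and 2729 CPM over the Lor steps, while Dsg1a held 1016, 659.6, 288 and 41.3 and Pkp1 held 718, 463, 248 and 111. In the cells richest in Lor, Cdsn was the member with the highest level, and Dsg2, Dsg3 and Dsc2 had 1 UMI among them. Pkp3 took 15.7%, 22.6%, 30.1% and 33.4% of the plakophilin UMIs over these steps. In the lowest spinous step, at 0.5 to 1% keratin, the Cdsn level was 18.4, 176 and 0.874 in replicates 1 to 3, so replicate 2 alone carried that mean.

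**Figure D4:**
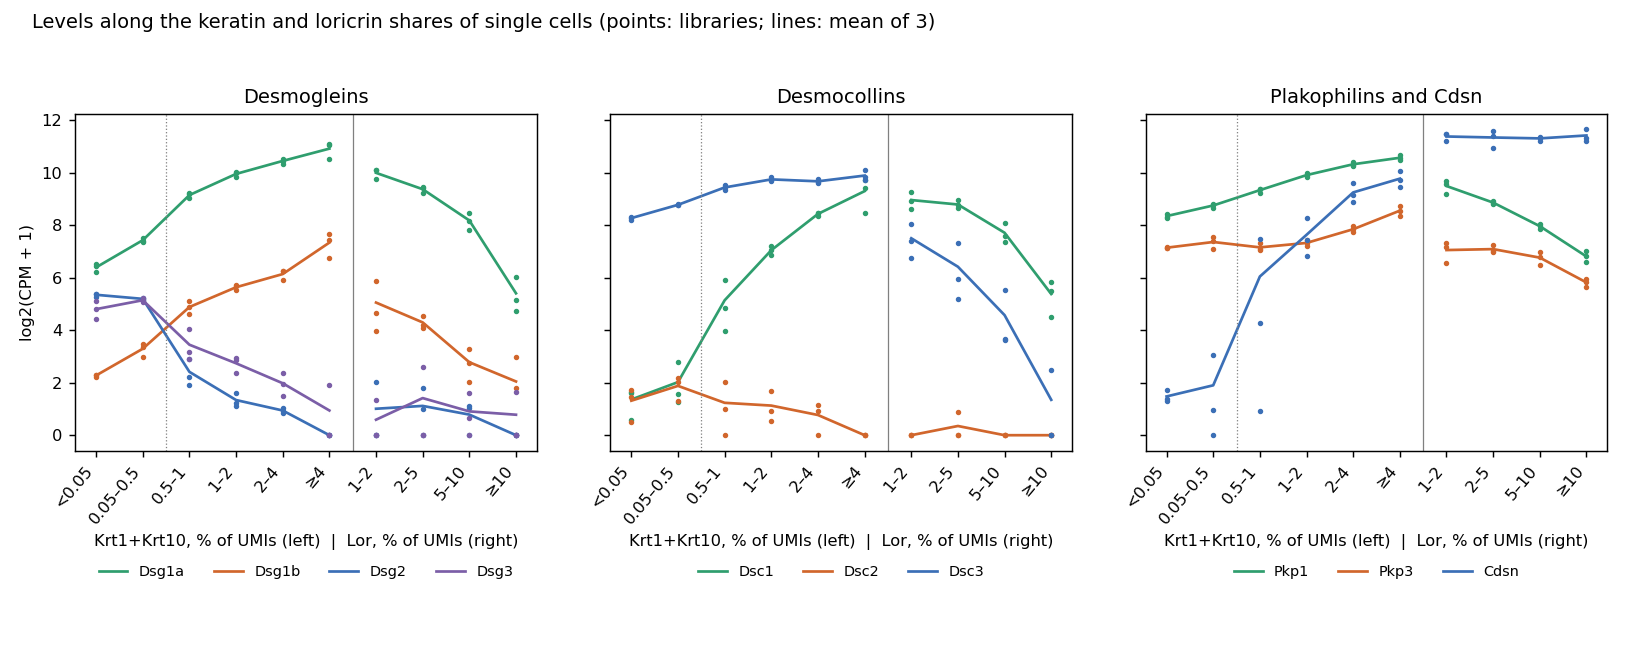
Log2(CPM + 1) along steps of Krt1 and Krt10 share (left of the solid line) and of Lor share (right of it); dots are libraries, lines their mean, and the dotted line divides basal from spinous cells. Dsg2 dropped beside the dotted line, Dsc3 dropped right of the solid line, and Cdsn stayed level over the Lor steps.

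The spinous group was also divided by Lor, a split added after seeing the data. The 134 spinous cells with Lor between 0.1% and 1% made up 5.84% of spinous cells and 7.36% of their UMIs, but held 51.1% of the spinous Cdsn UMIs and 23.0% of the Dsc1 UMIs. Cdsn held 2436, 2458 and 1653 CPM in these cells of replicates 1 to 3, of which replicate 1 had 7 cells, and 90.4, 96.3 and 50.5 in spinous cells without Lor. The Dsc1 share of desmocollins was 75.1%, 68.7% and 64.1% in the same cells, beside 11.4%, 11.96% and 13.3% in spinous cells without Lor. Dsc1 had thus passed Dsc3 in all 3 libraries before the granular threshold was reached. Dsg1a stood at 1231 ± 336 there and at 977 ± 64 in spinous cells without Lor, and the ranges overlapped. Within each of the 3 libraries it was higher there, at 989, 1090 and 1614 against 946, 934 and 1051.

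Whether Dsc1 and Dsc3 met in the same cell was counted after thinning every cell to 3000 UMIs, which left 2203 spinous, 2098 basal and 400 granular cells. In spinous cells 21.5% ± 2.7 had UMIs of both genes, 65.4% had Dsc3 without Dsc1, and 5.99% had Dsc1 without Dsc3. In basal cells 0.437% had both, and 61.2% had Dsc3 without Dsc1. In granular cells 5.11% had both and 47.0% had Dsc1 without Dsc3. At full depth 50.7% of spinous cells had both, so the count with both is limited by depth. Of 51 immune cells 0 had both; 3 counts in 51 cells, the limit that a count of 0 allows, are a share of 5.88%, and the exact 95% interval reaches 6.98%.

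A Dsc3 UMI, with or without one of Dsc1, was found in 9.30% of granular cells and in 3 of 51 immune cells, or 5.88% (exact 95% interval 1.23% to 16.2%; median depth before thinning 4735 UMIs in immune cells and 19883 in granular cells), so the granular share lay within the wide interval of the immune share. Cdsn had a UMI in 99.0% of granular, 15.5% of spinous and 0.514% of basal cells, and in 1 of the 51 immune cells. Dsg1a had a UMI in 26.4% of basal cells and in 0 of the 51 immune cells. Dsg2 was found in 11.1% and Dsg3 in 8.23% of basal cells, and both together in 1.03%; neither was found in an immune cell. At 3000 UMIs per cell such low genes give no order of cells.

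**Figure D5:**
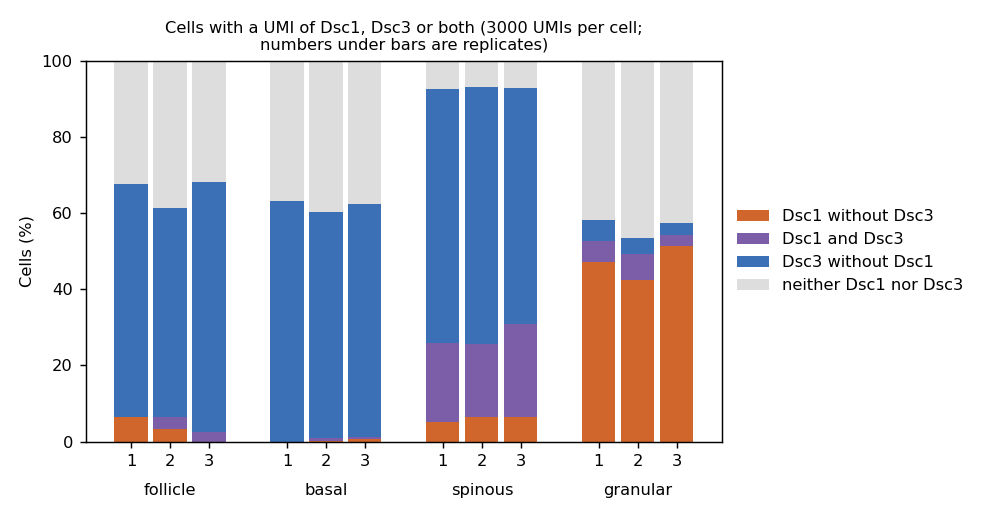
Share of cells (%) with UMIs of Dsc1 alone, both Dsc1 and Dsc3, Dsc3 alone or neither, each cell thinned to 3000 UMIs, for every library and group. Cells with both genes were most frequent in the spinous group, at 19.2% to 24.5%, and cells with Dsc1 alone in the granular group, at 42.5% to 51.3%.

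Follicle cells had higher Cdsn and Dsc1 than basal cells, and the other 8 genes did not pass the test. Thus 2 of the 10 were called higher and 0 lower, with 9.06% of all genes called higher, 6.31% lower and 15.4% in either direction. This comparison shares its basal profiles with the comparison of spinous and basal cells. The follicle group was small, with 298933, 230696 and 285020 UMIs in replicates 1 to 3.
Cdsn held 30.1, 655 and 218 CPM in follicle cells, against 1.09, 1.87 and 3.53 in basal cells, a log2 fold change of 6.70 ± 0.54 (adjusted p = 9.89e-09). Dsc1 held 16.7, 143 and 35.1 in follicle cells, against 0.727, 2.02 and 3.41 in basal cells, a change of 4.61 ± 0.57 (adjusted p = 3.91e-06). Replicate 2 was far above the others for both genes. Without it the changes were 5.46 for Cdsn (adjusted p = 2.84e-07) and 3.36 for Dsc1 (adjusted p = 0.000439), and without replicate 3 they were 7.41 and 5.45.

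Of the 122 follicle cells, 75 also met the basal rule, 2 the spinous rule and 1 the granular rule. The granular marker list summed to between 40.1 and 3481 CPM in follicle cells of the 3 libraries, against 32.9 to 100.4 in basal cells, and replicate 2 was the high one. Without the 3 cells that met a suprabasal rule, Dsc1 held 16.7, 0 and 32.6 in follicle cells and its change was 2.86 ± 0.62 (adjusted p = 0.00169). Cdsn then held 30.1, 68.7 and 225 and its change was 5.38 ± 0.49 (adjusted p = 6.91e-09), while Pkp1 was called lower at -0.44 (adjusted p = 0.0271). With 3 follicle markers required, Dsc1 had no call and its fitted change was negative, at -6.56 (adjusted p = 0.63), from the follicle cells of replicates 2 and 3 only. Cdsn was then at 4.08 (adjusted p = 0.00244) and Pkp1 was called lower at -1.02 (adjusted p = 0.00137). With mitochondrial UMIs held to 5%, which left follicle profiles of replicates 2 and 3, Dsg1a was called higher at 1.37 (adjusted p = 0.000526). The sebocyte marker list summed to 381 to 2382 in follicle cells, against 73.6 to 99.8 in basal cells. Krt79, which is also on the follicle list, alone held 880, 316 and 2309 CPM in follicle cells of replicates 1 to 3. Scd1, also of the sebocyte list, held 33.5, 26.0 and 24.6 in follicle cells and 36.0, 52.4 and 37.8 in basal cells. The Langerhans list summed to 330 to 425 in follicle cells, with Cd207 and H2-Aa at 0, against 113 to 136 in basal cells. Cd74 of that list held 0, 4.33 and 0 in follicle cells and 4.55, 9.37 and 8.71 in basal cells. Nearly all of the follicle sum thus came from Epcam, the remaining gene of the list. The fibroblast list summed to 26.0 to 104 in follicle cells, with Col3a1 at 0, against 0.144 to 18.4 in basal cells, and the melanocyte list to 3.35 to 116 in follicle cells, with Mlana at 0, against 0.576 to 2.24 in basal cells. The part of these lists in the result was not tested.

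Dsg3 held 40.1, 60.7 and 56.1 CPM in follicle cells, against 28.5, 24.2 and 34.4 in basal cells. The groups did not overlap, but the change of 0.68 ± 0.24 missed the threshold with TMM (adjusted p = 0.0659) and passed it with total UMIs (0.82, adjusted p = 0.0298). Dsg2 held 56.9, 21.7 and 38.6 in follicle cells, against 38.7, 37.5 and 39.2 in basal cells, and Dsc3 held 268, 420.5 and 396, against 349, 348 and 342. For both, the follicle range enclosed the basal range. For each desmoglein share, and for those of Pkp1 and Pkp3, the follicle and basal ranges overlapped; the Dsg3 share was 20.9% in follicle and 15.9% in basal cells (exact permutation p = 0.2). Dsc1 took 13.1% ± 11 of the desmocollin UMIs in follicle cells and 0.588% ± 0.39 in basal cells, and Dsc3 took 86.5% and 98.9% (exact permutation p = 0.1 for each). The follicle share of Dsc1 was 5.81%, 25.4% and 8.13% in replicates 1 to 3, and its mean was 6.97% without replicate 2. Without the cells that met a suprabasal rule, replicate 2 had no UMI of Dsc1 in follicle cells, so the groups no longer stood apart.

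In order of level over all 4 groups, Dsg1a ran from spinous over granular to follicle and basal cells, and only its last pair overlapped. Dsg2 and Dsg3 ran from follicle over basal and spinous to granular cells, and the first pair of Dsg2 overlapped. Dsc3 and Pkp1 were highest in spinous cells; the ranges of Dsc3 in follicle and basal cells overlapped, as did those of Pkp1 in basal, granular and follicle cells. Cdsn was highest in granular cells, with overlapping follicle and spinous ranges. Dsc1 ran from granular over spinous and follicle to basal cells with no overlap between neighbours. Dsg1b and Pkp3 were highest in spinous cells; for Dsg1b the follicle range overlapped both the granular and the basal range, which did not overlap each other, and for Pkp3 the basal and follicle ranges overlapped. The few UMIs of Dsc2 gave no order of basal, follicle and spinous cells.

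The other desmosome genes were described from a list of 9, of which Pkp2 and Dsg4 were too low to test. Pkp2, the plakophilin of heart muscle, had 3 UMIs in follicle cells, 1 in each library, and 2 in basal cells, or 0.813% and 0.0253% of the plakophilin UMIs (exact permutation p = 0.1), and Dsg4, a desmoglein of the hair shaft, had no UMI in any group. Between spinous and basal cells 6 of the 7 tested were called higher and 1 lower, beside 35.8% and 32.8% of all genes (68.5% in either direction). Evpl (envoplakin) rose by 2.83, Ppl (periplakin) by 2.18, Jup (plakoglobin) by 2.02, Dsp (desmoplakin) by 1.87 and Perp, a membrane protein of desmosomes, by 1.57, while Pkp4 fell by 1.38.
Between granular and spinous cells 4 were called higher and 1 lower, beside 30.8% and 37.4% of all genes (68.2% in either direction). Ppl rose by 2.26 and Dsg1c by 2.28, and both were also called with total UMIs. Evpl fell by 0.21. Dsp and Perp stood at 0.03 and 0.02 with TMM and were not called, and they stood at -0.74 and -0.75 with total UMIs. Jup, at 0.30 with TMM and -0.47 with total UMIs, turned with the scaling, and so did Pkp4, at 0.50 and -0.29. Between follicle and basal cells Evpl and Jup were called higher, at 0.95 and 0.41, and Pkp4 lower, at -1.27. Of all genes 9.06% were called higher and 6.31% lower there. Dsg1c was thus the only one of the 3 Dsg1 genes measured that was higher in granular than in spinous cells. It held 17.2, 16.9 and 12.8 CPM in granular cells, against 4.79, 4.85 and 6.41 in spinous cells. Dsg1c shares 26.2% of its 50-base stretches with Dsg1a. Within its first 500 bases, at the end that the kit reads, it shares 52.8% with Dsg1a and 46.6% with Dsg1b. Reads could therefore be exchanged between these genes.

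Of 12 adherens junction genes, 8 were called higher and 3 lower between spinous and basal cells, where 35.8% of all genes were called higher and 32.8% lower. Nectin4, a nectin adhesion molecule, rose most, by 5.98, and Cdh3 (P-cadherin) fell most, by 3.01. Between granular and spinous cells 4 were called higher and 6 lower, beside 30.8% and 37.4% of all genes; Actn1 (alpha-actinin 1) rose by 7.63 and Plekha7 fell by 2.51. Between follicle and basal cells 6 were called higher and 0 lower, beside 9.06% and 6.31% of all genes, with Nectin4 at 3.38.

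The genes most like each member over the 12 profiles were taken by Pearson's r of log2(CPM + 1) among 11344 genes; the profiles share 3 libraries and a common depth per group. Dsg2 was closest to Wnt6 (r = 0.994) and Dut (r = 0.991), and Dsg3 to Gas1 (r = 0.995) and Tgif1 (r = 0.992). Dsg1a was closest to Gng12 (r = 0.993), and Dsg1b to Paqr5 (r = 0.953) and Tanc1 (r = 0.951). Dsc1 was closest to Dkkl1 (r = 0.995) and Cldn4 (r = 0.995), and Cdsn to Klk7 (r = 0.994), a kallikrein protease of the horny layer, and Spint1 (r = 0.987). Dsc3 was closest to Kazald1 (r = 0.991) and Ncstn (r = 0.990), Pkp1 to Kdm5b (r = 0.974) and Naa15 (r = 0.973), Pkp3 to Syngr2 (r = 0.937) and Rpl23a (r = 0.935), and Dsc2, with few UMIs, to Ephx4 (r = 0.952) and Tfpt (r = 0.946). Among the members, Dsc1 with Cdsn had r = 0.967, Dsg2 with Dsg3 had r = 0.934, and Dsc1 with Dsc3 had r = -0.275.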

How the data were processed

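Per the submitters' processing notes, the authors processed reads with Cell Ranger 3.1.0 on mm10; the annotation version and strand setting are not given in the sources used here. The deposited matrices are unnormalised UMI counts for each gene in each cell, in total 15926683, 24480473 and 28176712 in replicates 1 to 3. UMIs collapse amplified copies, and intervals and floors cover counting error only. Cells with under 500 genes (395 barcodes) or over 10% mitochondrial UMIs (598) were left out, 738 in all. Scrublet (scanpy 1.11.5) marked 33 of 5340 cells as doublets (0.618%); they stayed in, and leaving them out was an alternative. Follicle cells were taken out first, then granular, spinous and basal cells.

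UMIs were summed per library and group (groups of 10 or more cells), giving 12 profiles in 1 edgeR 4.0.16 fit (R 4.3.3) with TMM, its low-count filter (11364 genes, all 10 members) and library as a block; calls needed an adjusted p under 0.05. Each library gives every group, which pairs the profiles; deviations from group means correlated within a library with r from 0.209 to 0.272 for spinous and basal, 0.0962 to 0.145 for granular and spinous and 0.00415 to 0.173 for follicle and basal profiles. The SE is the log2 fold change over the root of the F statistic. Levels (CPM) are relative to all UMIs of a group in a library; one 5′ end is counted per molecule, so no length was divided out. DESeq2 1.42.0 was an alternative. The fit was tested on simulated data. Cells were thinned to 3000 UMIs with seed 1, which left out 214 basal, 92 spinous, 24 granular and 19 follicle cells. Immune cells had 2 or more of Ptprc, Cd207, H2-Aa, Cd3e and Trdc and low keratins. The members and gene lists were chosen with earlier results of these data known. All members and the partner list are named; of the adherens junction list, the called genes with the largest rise and fall; and for each member the 2 genes with the highest r, leaving out members and the genes that define the groups; 1 of these genes is not reported here. The promoter table had an entry for Cdsn at the GENCODE start, which is the one shown. It also had an entry with a start at 35543101, 9027 bases before that start, which is not shown.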

Additional observations from a re-analysis of the deposited data

How the results depend on the processing

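Across 30 log2 fold changes of the members and 448 alternatives, 418 kept direction and side of the threshold. Total UMI scaling gave 2541 genes higher and 5805 lower (spinous minus basal), 2012 and 7059 with 8 members lower (granular minus spinous), and 429 genes lower (follicle minus basal, 717 with TMM). The follicle comparison had 620 to 845 genes higher and 363 to 656 lower when 1 replicate was left out (1030 and 717 with all; 679 and 437 without replicate 2, 620 and 363 without replicate 3), 382 higher with 3 follicle markers, and 432 lower with mitochondrial UMIs at most 5%, where replicate 1 gave no follicle profile; with 3 markers 1 member was higher and 1 lower, and without the cells of a suprabasal rule (chosen after seeing the data) 1 was lower. Fewer follicle cells entered these fits; beyond that the cause was not tested.

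Signs turned for granular minus spinous in Dsg2 (keratin threshold 1%, 0.0876; mitochondrial 5%, 0.0806) and Pkp3 (total UMIs, -0.68; no low-count filter, -0.019; -0.0157 to 0.15 with 1 replicate left out). For follicle minus basal they turned in Dsg1a (-0.0233 to 0.66 with 1 replicate left out; 3 markers, -0.88; without suprabasal-rule cells, -0.34), Dsg1b (-0.74 to 0.82, -0.43 and -0.23 in the same order), Dsg2 (total UMIs, 0.0637; -0.51 to 0.16 with 1 replicate left out; 3 markers, 0.0394), Dsc1 (3 markers, -6.56), Dsc3 (total UMIs, 0.0534; -0.22 to 0.0454 with 1 replicate left out; 3 markers, 0.21; mitochondrial 5%, 0.0484) and Pkp1 (mitochondrial 5%, 0.30); of these only Dsc1 was called with all cells. The cause was not tested.

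With the keratin threshold at 1%, spinous shares were 99.5% for Dsg1a and Dsg1b, 0.105% for Dsg2, 0.387% for Dsg3, 20.1% for Dsc1 and 79.8% for Dsc3. With Lor at 2%, granular shares were 99.6% for Dsg1a and Dsg1b, 73.3% for Pkp1 and 26.7% for Pkp3, and without doublets 99.7% for Dsg1a and Dsg1b and 0.119% for Dsg2. Spinous cells with Dsc1 and Dsc3 were 50.7% unthinned and 33.1% at 6000 UMIs; depth limits that share. The fit with no replicate block ended 1 call on a member, Dsg1a for granular minus spinous (adjusted p = 0.0959), and no other. Dsc2 was not tested without replicate 1, without replicate 3, with Lor at 2% or with mitochondrial UMIs at most 5%.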

Other observations

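The 187 cells in none of the groups held 104, 119 and 104 CPM of Dsg1a and 409, 276 and 184 of Dsc3 in replicates 1 to 3. Their Langerhans marker list summed to between 391 and 15115 and their T-cell list to between 501 and 1599 CPM, so they are a mixture and are not read as a group.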
